A study of Mus musculus with 2 samples.

Results

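Maturing neutrophils are described here as the marrow barcodes that carried a calprotectin-rich transcriptome together with transcripts of 4 genes of later maturation, Mmp8, Mmp9, Retnlg and Cxcr2, called the late genes below. A barcode was a member when under 10% of its unique molecular identifiers (UMIs, the tags that count single captured transcripts) were mitochondrial, S100a8 and S100a9 together made up at least 15% of its UMIs, and the late genes together had at least 3 UMIs. The rule found 520 members among 6458 barcodes of the marrow library and 8980 barcodes in the whole series. They were 8.08% of the 6439 marrow barcodes that passed the mitochondrial limit (95% exact binomial interval 7.42 to 8.77) and 24.0% (22.2 to 25.9) of the 2164 calprotectin-rich ones. The S100 share and the late genes chose the members, so their values are given as a description and support nothing.

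The marrow library was made from CD45+ CD3- Ly6G- cells of naive, otherwise unmodified C57BL/6 mice, 3 of which were pooled. A second library held CD45+ cells expressing GFP in naive Car1-GFP reporter mice on the same background, 3 of which were also pooled. The cells were counted by droplet-based 10x Genomics 3' sequencing after 10000 sorted cells had been loaded. Each group is 1 library, so there is no spread between mice and no test between groups.

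Neutrophils mature in the marrow from granulocyte-monocyte progenitors through promyelocyte, myelocyte, metamyelocyte and band stages. Granule proteins are made in a fixed order along this path: primary granule enzymes such as myeloperoxidase first, secondary granule proteins such as lactoferrin next, and tertiary granule proteins such as gelatinase later, with chemoattractant receptors and secretory vesicles appearing near release. Proliferation ends about when secondary granule synthesis is under way, and the balance of the chemokine receptors Cxcr4 and Cxcr2 governs retention in, and exit from, the marrow.

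The sort excluded cells with Ly6G on the surface, and Ly6g, the gene for that glycosylphosphatidylinositol-anchored antigen, is also a marker of this stage that the rule did not use. Its transcript had 227 UMIs in the members, which is a level of 394 CPM (UMIs of the gene scaled to a common total over the class). Of the 520 members 162 (31.2%, 27.2 to 35.3) held at least 1 Ly6g UMI, and none held more than 5. How much Ly6G protein the sorted cells carried was not measured. The name maturing neutrophils therefore rests on transcripts, within a sort that limits how far the library stands for all marrow neutrophils.

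The late genes lie at separate places in the genome. In the GENCODE M21 annotation of mm10, all of them protein-coding, Mmp8 is on chromosome 9 from 7558456 to 7568485, Mmp9 on chromosome 2 from 164940780 to 164955850, Retnlg on chromosome 16 from 48872621 to 48874496, and Cxcr2 on chromosome 1 from 74153989 to 74161246. Ly6g is on chromosome 15 from 75155240 to 75159126. The secondary granule genes Camp (chromosome 9, 109847379 to 109849617), Ngp (110419747 to 110423012) and Ltf (111019271 to 111042767) lie near each other on chromosome 9, and Lcn2 is on chromosome 2 from 32384633 to 32388252.

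Proximal promoters of 3 of these genes are shown because the granule genes are textbook targets of C/EBP factors, and C/EBP epsilon (Cebpe) was among the transcripts measured in the members. Sequences are from RefSeq on GRCm38.p6 (mm10), 5′ to 3′ on the gene's strand, and end where the first GENCODE exon begins or at the RefSeq start site. Capitals mark the C/EBP-type motif TTGCNNAA or its reverse complement TTNNGCAA. The Ngp piece spans chr9:110419558-110419746, the Ltf piece chr9:111019042-111019270 and the Mmp8 piece chr9:7558179-7558428, each on the plus strand.
Ngp: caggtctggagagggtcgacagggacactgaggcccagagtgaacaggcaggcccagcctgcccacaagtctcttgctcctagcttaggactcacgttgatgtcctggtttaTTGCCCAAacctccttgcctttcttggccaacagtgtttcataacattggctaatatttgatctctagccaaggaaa
Ltf: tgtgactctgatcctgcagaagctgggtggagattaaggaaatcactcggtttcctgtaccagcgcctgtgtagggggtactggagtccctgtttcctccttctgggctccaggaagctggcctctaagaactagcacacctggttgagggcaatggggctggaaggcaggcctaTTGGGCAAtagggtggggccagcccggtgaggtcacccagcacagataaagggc
Mmp8: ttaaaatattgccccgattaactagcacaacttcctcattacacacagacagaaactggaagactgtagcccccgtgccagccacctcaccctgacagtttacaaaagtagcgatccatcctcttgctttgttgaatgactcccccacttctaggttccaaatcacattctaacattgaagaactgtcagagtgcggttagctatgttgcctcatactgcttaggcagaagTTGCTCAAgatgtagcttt

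The marked motif began 138 bases before the RefSeq start site in Ngp, 75 bases before it in Ltf and 19 bases before it in Mmp8. In Ngp and Ltf that site lies past the end of the printed piece, inside the first GENCODE exon. The 250 bases before the Ngp start site held 2 matches, of which 1 lies in the printed piece. Of the 24 genes of the rule, secondary granule and tertiary granule lists, 20 had a window. Over the 250 bases before the start site, the motif was found in 8 of these 20: S100a9, Mmp8, Retnlg, Fcnb, Lcn2, Ngp, Ltf and Adam8. The same letters, on either strand, occurred in 9.56% of all 32851 windows of that length. A match is a description of letters and not a binding site, and its absence from a window, as for Cxcr2 and Camp, says nothing about the factor.

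Depth was low and differed between classes. The members held 575413 UMIs in all, with a median of 833.5 UMIs (594 to 4730) and 330 genes per barcode. The 1644 calprotectin-rich barcodes with fewer than 3 UMIs of the late genes, called the below-limit barcodes here, had medians of 1145.5 UMIs and 437 genes, and the 5919 other marrow barcodes together 1068 UMIs and 559 genes. When every barcode was thinned to 500 UMIs, which left none out, the members still had few genes, with a median of 217 against 223 in the below-limit barcodes and 338 in the other barcodes. The share of calprotectin-rich barcodes that were members differed with depth, without a steady trend: 41.3% (37.3 to 45.4) of 588 barcodes under 800 UMIs, 18.7% of 663 from 800 to under 1200, 14.3% of 698 from 1200 to under 2000, and 24.7% of 215 from 2000 up. RNA content per cell and capture cannot be told apart here.

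The libraries shared 14 barcode sequences, 1 of them that of a member. Scrublet marked 24 members (4.62%) as doublets against 171 (2.66%) of all kept marrow barcodes. The marked barcodes were kept, and each count was also made without them. In the Car1-GFP library 1 barcode met the rule, with 6925 UMIs, a calprotectin share of 25.7% and 11 UMIs of the late genes.

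Within the rule, the members spread widely. The S100a8 plus S100a9 share, which is the share taken by the subunits of the calcium- and zinc-binding protein calprotectin, had a median of 34.2% (15.1 to 46.3). The late genes together had a median of 6 UMIs (3 to 58), and 136 members (26.2%) stood at exactly 3. Retnlg, which encodes a resistin-like secreted protein of granulocytes, had at least 1 UMI in 96.2% of members, Mmp8 (neutrophil collagenase) in 62.9%, Mmp9 (gelatinase B) in 61.9% and Cxcr2, the receptor for Cxcl1 and Cxcl2, in 19.0%. Retnlg was the only late gene seen in 74 members, and 48 members held all 4.

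Members just inside the late-gene limit were close to the barcodes just outside it. At 2 UMIs there were 275 calprotectin-rich barcodes and at 3 there were 136. Ly6g was 207 CPM at 2 and 212 CPM at 3, Camp 49126 and 47280 CPM, Ltf 5475 and 5605 CPM, and S100a6 625 and 712 CPM. Along the other limit, 9 members had a calprotectin share from 15% to under 16%, and 9 barcodes with 3 or more late-gene UMIs lay from 14% to under 15%.

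Late-gene UMIs were also seen in barcodes that should lack them. Barcode classes other than the members were set by UMIs of a few marker genes, given with the processing steps. The late genes summed to 9670 CPM (9417 to 9927) in the members, to 570 CPM (538 to 604) in the below-limit barcodes and to 639 CPM (586 to 696) in 255 erythroid barcodes. At a median depth of 2895 UMIs, 27.1% (21.7 to 33.0) of the erythroid barcodes reached 3 UMIs of these genes. Thinned to 500 UMIs, Retnlg was seen in 79.4% of members, 21.4% of below-limit barcodes and 25.1% of erythroid barcodes; the rule caps the below-limit share and not the erythroid one, so these 2 are not compared. Cxcr2 was seen in 11.5% (8.92 to 14.6) of members, 1.40% (0.89 to 2.09) of below-limit barcodes and 0.39% (0.01 to 2.17) of erythroid barcodes.

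**Figure D1:**
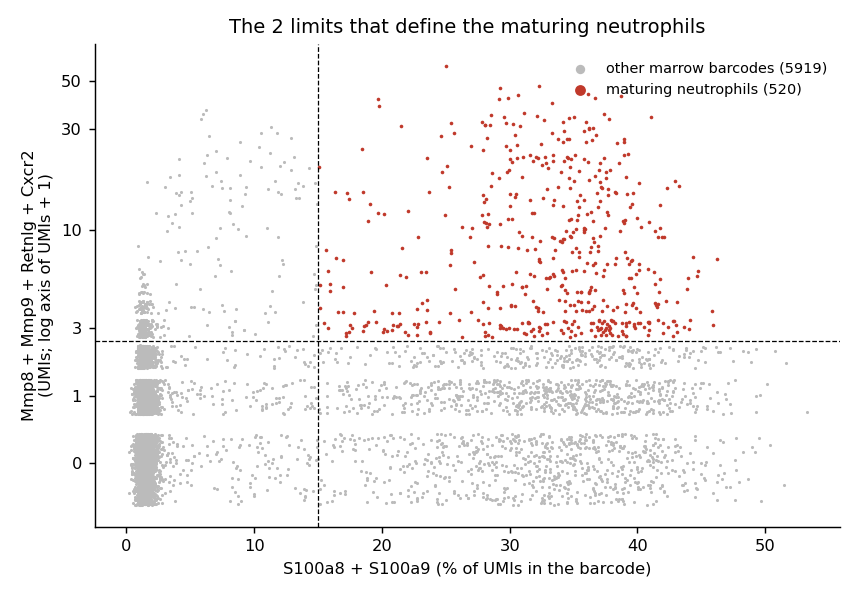
Each point is 1 marrow barcode, placed by its share of S100a8 and S100a9 UMIs (x axis, %) and its UMIs of Mmp8, Mmp9, Retnlg and Cxcr2 (y axis, log axis of UMIs + 1, points jittered), with dashed lines at the limits of 15% and 3 UMIs. The 520 members fill the upper right and run from 3 to 58 UMIs with no gap at the limit, and 69 barcodes with 10 or more UMIs lie left of 15%.

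Against the other marrow barcodes, the members stood out by secondary and tertiary granule genes and surface receptors at higher levels and by primary granule and replication genes at lower levels. A gene was measured when both sides together held 20 UMIs or more, and is counted as higher or lower when its ratio reached 2-fold. Of 10485 measured genes, 4113 (39.2%) reached it either way, 489 (4.66%) as higher in the members and 3624 (34.6%) as lower. The median gene stood at -0.62 on the log2 scale, and calprotectin took a median of 34.2% of the UMIs of a member and 1.74% of those of another barcode. With edgeR's TMM factors all ratios moved by 0.65 and the split was 1305 higher and 1659 lower, with DESeq2 size factors by 0.69 with 1396 and 1556, and with the 6 rule genes taken out of the totals it was 943 and 2208. The rule used this contrast, and a class chosen by expression against the rest is no test, so the ratios below are a description. Their intervals are 95% exact binomial intervals of 2 counts and cover counting error only.

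Secondary granule genes were nearly all higher. Of 9 measured members of the list, 8 were higher and 0 lower, with a median log2 ratio of 1.57 against -0.62 for all genes. Ltf, the iron-binding lactoferrin, was 6423 CPM in the members, 5212 CPM in the below-limit barcodes, 367 CPM in monocyte barcodes and 309 CPM in granulocyte-monocyte progenitor barcodes. Lcn2, the siderophore-binding lipocalin, was 7025, 6649, 374 and 355 CPM in the same order. Cd177, a surface glycoprotein stored in these granules, was 759 CPM in the members and 194 CPM in the other barcodes together (log2 ratio 1.97, 1.82 to 2.13), and the peptidoglycan-binding Pglyrp1 was 3073 and 868 CPM (1.82, 1.75 to 1.90). The exception was Fcnb, the lectin ficolin B, at 516 and 336 CPM (0.62, 0.44 to 0.79).

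Primary granule genes stood on the other side. Of 9 measured, 0 were higher and 6 lower, with a median of -1.86. The serine protease gene Elane (neutrophil elastase) was 320 CPM in the members, 421 CPM in the below-limit barcodes and 4487 CPM in the progenitor barcodes. UMIs of Elane, Mpo, Prtn3 and Ctsg chose the progenitor barcodes, so the progenitor level is a description only. Mpo (myeloperoxidase) was 189 CPM in the members and 948 CPM in all other barcodes (log2 ratio -2.32, -2.61 to -2.05), and Ctsg (cathepsin G) 34.8 and 298 CPM (-3.10, -3.81 to -2.47). Calr, the chaperone calreticulin of the same list, was 74.7 and 330 CPM (-2.14, -2.61 to -1.71). At 500 UMIs, Elane was seen in 7.31% of members and 7.06% of the 255 erythroid barcodes, of which 6 also met the progenitor rule, and the part of free RNA was not tested. Cd63, a granule membrane tetraspanin, was the one member with a ratio above 0, at 393 and 245 CPM (0.68, 0.48 to 0.88).

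Of 8 measured tertiary granule and late activation genes, 6 were higher and 0 lower, with a median of 1.99. Adam8, a membrane metalloprotease that sheds adhesion molecules, was 45.2 CPM in the members and 4.83 CPM in the other barcodes (3.23, 2.45 to 3.98). Padi4, the peptidyl arginine deiminase that citrullinates histones, was 144 and 29.6 CPM (2.28, 1.91 to 2.65). The integrin chains Itgam and Itgb2 were 360 and 229 CPM in the members, against 111 and 104 CPM. Arg2 (2.62, 1.09 to 3.98) and Mmp25 (2.51, 1.36 to 3.57), an arginase and a membrane-anchored metalloprotease, rested on 7 and 11 member UMIs. Slc11a1 and Lyz2 were the measured genes of the list that did not reach 2-fold, and Lyz2 (lysozyme) was 8589 CPM in the members, 10284 CPM in the monocyte barcodes and 1808 CPM in the progenitor barcodes.

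Chemoattractant and pattern receptors were mostly higher: 13 of 19 measured surface genes were counted as higher and 0 as lower, with a median of 1.52. Ly6g was 394 CPM in the members and 66.2 CPM in the other barcodes (2.58, 2.35 to 2.80). Fpr2, a formyl peptide receptor, was 325 and 54.0 CPM (2.59, 2.33 to 2.84), and C5ar1, the receptor for complement fragment C5a, 137 and 31.3 CPM (2.13, 1.75 to 2.50). Csf3r, the receptor for granulocyte colony-stimulating factor, was 116 and 39.9 CPM (1.55, 1.14 to 1.93). Fpr1 (3.32, 2.26 to 4.35), the other formyl peptide receptor, and Il1r2 (2.33, 1.49 to 3.11), the decoy receptor for interleukin 1, rested on 15 and 19 member UMIs.

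Several inflammatory cytokine transcripts were near the limit of detection. Il1b, the interleukin 1 beta gene, had 1 UMI in all members, and Ccl3 and Ccl4, which encode inflammatory chemokines, had 3 each. Among 11 measured genes of chemokines, cytokines and their receptors, 6 were higher and 0 lower. Il1rn, the interleukin 1 receptor antagonist, was 50.4 and 8.80 CPM (2.52, 1.84 to 3.16). The retention receptor Cxcr4 was 327 and 207 CPM (0.66, 0.43 to 0.88). Cxcr2 is part of the rule, so its presence beside Cxcr4 in the class says nothing about their balance. Of 6 measured immediate early and stress genes, which tissue handling can raise, 2 were higher and 1 lower. Jun had 0 UMIs and Fos 3, while Zfp36 (1.08, 0.47 to 1.65) and Dusp1 (1.19, -0.35 to 2.44) were those counted as higher.

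Of 7 measured genes of the oxidant-producing NADPH oxidase, 3 were higher and 0 lower (median 0.93). Cybb, the catalytic subunit, was 1378 and 634 CPM, and the cytosolic subunit Ncf1 was 643 and 229 CPM. Over the below-limit barcodes Cybb stood at 0.13 (0.01 to 0.25) and Ncf1 at 0.49 (0.31 to 0.67). None of 7 pentose phosphate genes, which supply NADPH, passed 2-fold in either direction over the other barcodes (median 0.64). Relative to the all-gene median of -0.62, the oxidase list lay at 1.55 and the pentose phosphate list at 1.26. Of 17 tricarboxylic acid cycle genes, 0 were higher and 6 lower (median -0.89), and of 18 nuclear genes of oxidative phosphorylation, 0 were higher and 8 lower (median -0.94). Of all measured genes 34.6% were lower, and relative to the all-gene median these lists lay at -0.27 and -0.32, so most of the distance from 0 was shared with all genes. Glycolysis genes were mixed, with 2 of 17 higher and 2 lower (median 0.23), and the glucose transporter gene Slc2a3 had the highest ratio of them at 141 and 31.5 CPM (2.16, 1.78 to 2.53).

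Transcription factor genes were mixed. Mxd1, a partner of Max that opposes Myc, was 231 CPM in the members and 40.6 CPM outside them (2.51, 2.21 to 2.80), while Myc had 2 UMIs in all members, 3.48 against 52.3 CPM (-3.91, -6.96 to -2.05). Cebpe, the C/EBP factor of secondary granule synthesis, was 391 and 181 CPM (1.11, 0.91 to 1.32). The monocyte and dendritic factor Irf8 was 92.1 and 290 CPM (-1.66, -2.08 to -1.26) and Klf4, a factor of the monocyte branch, 19.1 and 87.7 CPM (-2.20, -3.21 to -1.35). Irf5, an interferon regulatory factor, was 8.69 and 50.8 CPM (-2.55, -4.18 to -1.31). Over the list, 2 of 20 were higher and 7 lower, which is close to the 34.6% of all genes that were lower, and the median of -0.33 is 0.29 above that of all genes. Bcl2, the antiapoptotic gene of progenitors and lymphocytes, had 0 UMIs in the members against 33.2 CPM, which is at least 6.37-fold lower with a floor of 3 UMIs over the group.

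Of 12 replication genes 10 were lower and 0 higher (median -1.36). Mitosis genes did not share this, with 2 of 12 lower, 0 higher and a median of -0.68, close to the all-gene median of -0.62. The remaining lists are given beside the all-gene shares of 4.66% higher and 34.6% lower. Of 9 protease inhibitor genes 5 were higher and 3 lower, and of 11 other S100 and annexin genes 3 and 4. Among 15 actin and motility genes 1 was higher and 0 lower, and among 5 eicosanoid genes 2 and 0. Among 13 interferon-stimulated genes 1 was higher and 3 lower, and among 10 Bcl2 family genes 0 and 3. In this order the list medians were 1.08, 0.40, 0.40, 0.86, -0.55 and -0.63, against -0.62 for all genes. The stefin genes Stfa1 and Stfa2l1, cystatin-type inhibitors of cathepsins, had log2 ratios of 4.71 (3.93 to 5.53) and 4.58 (3.37 to 5.86). Wfdc21, a secreted whey acidic protein family member, was 9517 and 2710 CPM. The interferon-inducible membrane protein gene Ifitm6 was 1854 and 448 CPM, and Anxa1, which encodes annexin A1, 1873 and 536 CPM. Over the below-limit barcodes these genes did not reach 2-fold: Wfdc21 stood at 0.12 (0.08 to 0.17), Ifitm6 at 0.61 (0.51 to 0.72) and Anxa1 at 0.38 (0.28 to 0.48). The stefin genes belong to a cluster of near-identical copies, so the counts of each copy are uncertain, and the same holds for Mrgpra2b and the Slfn genes. Of 3 measured carbonic anhydrase genes 2 were lower: Car1, the gene behind the reporter of the second library, was 15.6 CPM in the members and 108 CPM outside them (-2.79, -3.93 to -1.86), and Car2 20.9 and 199 CPM (-3.25, -4.21 to -2.44).

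Outside the lists, and above a mean of 50 CPM over both sides, the highest ratios belonged to Thbs1, the adhesive matrix protein thrombospondin 1, at 118 and 12.4 CPM (3.25), and Ceacam10, a carcinoembryonic antigen-related adhesion gene, at 90.4 and 10.5 CPM (3.10). They were followed by Mrgpra2b (2.57), AA467197 (2.48), Slfn4 (2.28), Fmo5 (2.23), the sialic acid receptor Cd33 (2.21), the organic anion transporter Slco4c1 (2.17) and Tcp11l2 (2.11). The lowest, by the same limit, were Ly86, the partner of the Toll-like receptor homologue RP105, at 8.69 and 111 CPM (-3.68), then Mndal (-3.19), Pebp1 (-3.10), Tifab (-3.04), Ahnak (-3.02), the nucleolar helicase gene Ddx21 (-2.99), the mitochondrial chaperones Hspd1 (-2.85) and Hspe1 (-2.82), Ybx3 (-2.79) and the nucleolar Nop58 (-2.75). Ribosomal protein transcripts took a median of 4.45% of the members' UMIs, 5.69% in the below-limit barcodes and 19.0% in the other barcodes.

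**Figure D2:**
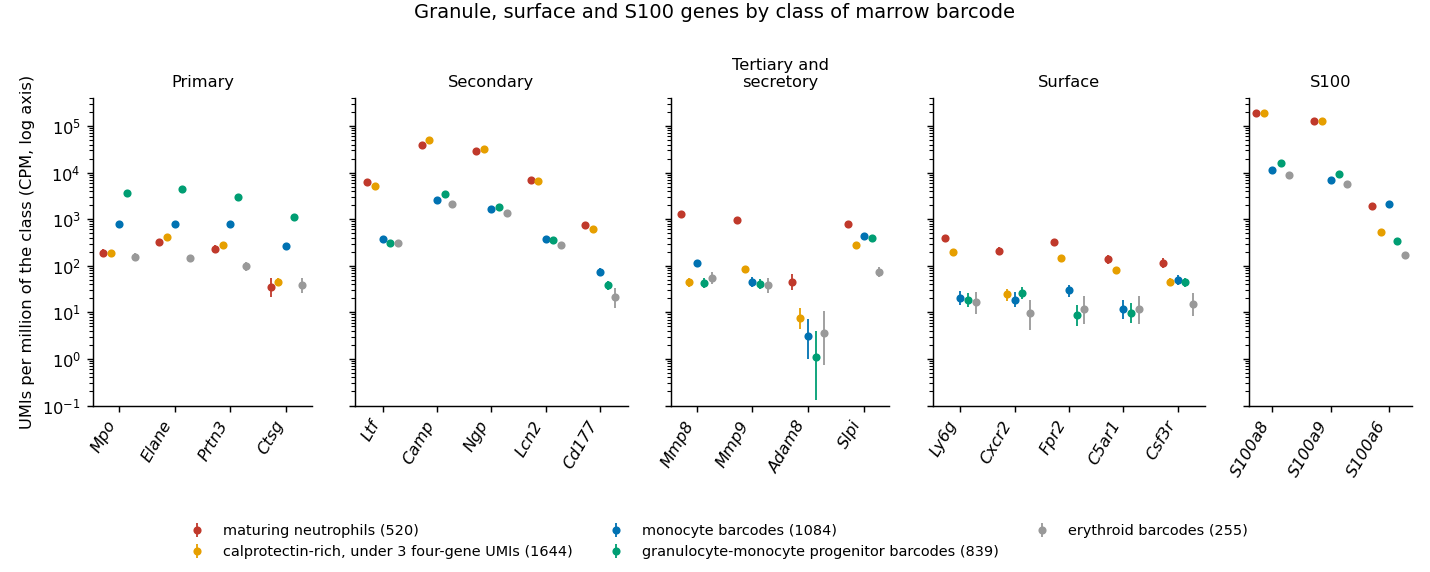
Level of named genes (y axis, CPM, log axis) in 5 classes of marrow barcode, with 95% exact Poisson intervals that cover counting error only; numbers in the legend are barcodes. Members and below-limit barcodes share their primary and secondary granule levels to within 2-fold and differ from the monocyte and progenitor barcodes. Mmp8, Mmp9, Cxcr2, S100a8 and S100a9 are part of the rule, and Elane, Mpo, Prtn3 and Ctsg chose the progenitor barcodes. Ly6g, Fpr2 and S100a6 chose no class.

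The nearest barcodes were the 1644 below-limit ones, which the late-gene limit alone keeps out. Against them 6 of 15 measured surface genes and S100a6 were higher in the members and 3 of 12 replication and 4 of 12 mitosis genes lower, while the secondary granule list summed to 90083 CPM (89309 to 90862) against 103104 CPM (102667 to 103542). Of 6744 measured genes, 772 (11.4%) reached 2-fold either way, 302 (4.48%) as higher and 470 (6.97%) as lower, and the median gene was at -0.04. The rule's late genes define this contrast, so it is a description too.

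The secondary granule genes parted within the list: 0 of 9 passed 2-fold either way and the median was 0.08, but the signs were mixed beyond counting error. Ltf was above its below-limit level in the members (log2 ratio 0.30, 0.25 to 0.36), as were Cd177 (0.32, 0.16 to 0.48) and Pglyrp1 (0.19, 0.11 to 0.26). Camp, the cathelicidin precursor, was below it at 39721 against 49602 CPM (-0.32, -0.34 to -0.30), as were the neutrophilic granule protein gene Ngp (-0.18, -0.20 to -0.15), the chitinase-like Chil3 (-0.51, -0.59 to -0.43) and Fcnb at 516 against 952 CPM (-0.88, -1.06 to -0.71). Cebpe was 391 against 522 CPM (-0.42, -0.63 to -0.21). None of 9 primary granule genes passed 2-fold (median -0.28).

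Of 15 measured surface genes 6 were counted as higher and 0 as lower (median 0.89), and the other 9 did not reach 2-fold. Ly6g was 394 against 194 CPM (1.02, 0.78 to 1.26), and at 500 UMIs it was seen in 21.3% (17.9 to 25.1) of members, 10.5% (9.08 to 12.1) of below-limit barcodes and 1.57% (0.43 to 3.97) of erythroid barcodes. Fpr2 was 325 against 146 CPM (1.15, 0.88 to 1.42) and Csf3r 116 against 45.0 CPM (1.37, 0.90 to 1.84). Selplg, the P-selectin ligand, was 155 against 69.2 CPM (1.16, 0.76 to 1.55), and the other 2 past 2-fold were Clec4e (2.14, 1.17 to 3.12), a C-type lectin that senses fungal and mycobacterial glycolipids, and Tlr4 (1.97, 0.66 to 3.29), the lipopolysaccharide receptor. Tlr4 and Clec4e rested on 12 and 22 UMIs in the members.

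Cytokine genes were partly higher, with 3 of 8 measured past 2-fold and 0 lower. These were Il1rn (2.24, 1.39 to 3.11), the chemokine receptor gene Ccr1 (2.17, 1.26 to 3.09) and the chemokine gene Ccl6 at 153 against 46.4 CPM (1.72, 1.29 to 2.15). Against all other marrow barcodes Ccl6 had a ratio below 0 (-0.42, -0.75 to -0.11), while Il1rn and Ccr1 stood at 2.52 and 1.63. Among tertiary granule genes 2 of 6 were higher and 0 lower: Adam8 (2.55, 1.59 to 3.54) and Padi4 (1.04, 0.63 to 1.44).

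The other leading genes were of mixed function. S100a6, a calcium-binding S100 protein, was 1891 against 522 CPM (1.86, 1.73 to 1.98), and at 500 UMIs it was seen in 52.7% (48.3 to 57.1) of members, 21.1% (19.2 to 23.2) of below-limit barcodes and 9.80% (6.45 to 14.1) of erythroid barcodes. Against all other marrow barcodes its ratio was 0.96 (0.87 to 1.05). Slpi, the secretory leukocyte peptidase inhibitor, was 782 against 281 CPM (1.48, 1.30 to 1.66). Thbs1 (2.47), Slfn1 (2.08), Ceacam10 (1.82), Grina (1.78), Gdpd3 (1.72), Plek (1.58), Cd84 (1.57), Prr13 (1.56), Sh3glb1 (1.51), Tmcc1 (1.48), Slfn4 (1.46) and Slc2a3 (1.38) completed the highest 15. Mxd1 (1.36, 1.03 to 1.69) and the quiescence factor Klf2 (1.31, 0.79 to 1.82) were the transcription factor genes past 2-fold upward, and Gfi1 (-1.44, -3.39 to 0.03) and Myc (-1.32, -4.48 to 0.74), both seen in under 5 member UMIs, those past it downward.

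Part of the cell-cycle genes were lower. Of 12 DNA replication genes 3 were counted as lower and 0 as higher (median -0.79), and of 12 mitosis genes 4 were lower and 0 higher (median -0.66). Pcna, the sliding clamp of the replication fork, was 64.3 against 146 CPM (-1.18, -1.72 to -0.69), Rrm2, a ribonucleotide reductase subunit, 123 against 274 CPM (-1.15, -1.53 to -0.79), and Cdk1, the mitotic kinase, 48.7 against 103 CPM (-1.09, -1.71 to -0.52). The replicative ligase Lig1 had the lowest ratio of the genes above the 50 CPM level (-1.49), followed by Ssrp1 (-1.39), Ilf2 (-1.38), Kif11 (-1.34), 2700029M09Rik (-1.32), Ccnb2 (-1.25), Ccna2 (-1.17), the kinase inhibitor Cdkn2c (-1.12), Tmed3 (-1.09), Tpx2 (-1.08), Pgp (-1.07) and the histone mRNA binding Slbp (-1.04). With all barcodes thinned to 500 UMIs, at least 1 UMI of the mitosis list was seen in 25.8% (22.1 to 29.8) of members and 47.3% (44.8 to 49.7) of below-limit barcodes, and of the replication list in 16% (12.9 to 19.4) and 28.8% (26.7 to 31.1). The same lists were seen in 17.3% and 15.4% of the 52 plasmacytoid dendritic barcodes, and the part of free RNA was not tested.

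**Figure D3:**
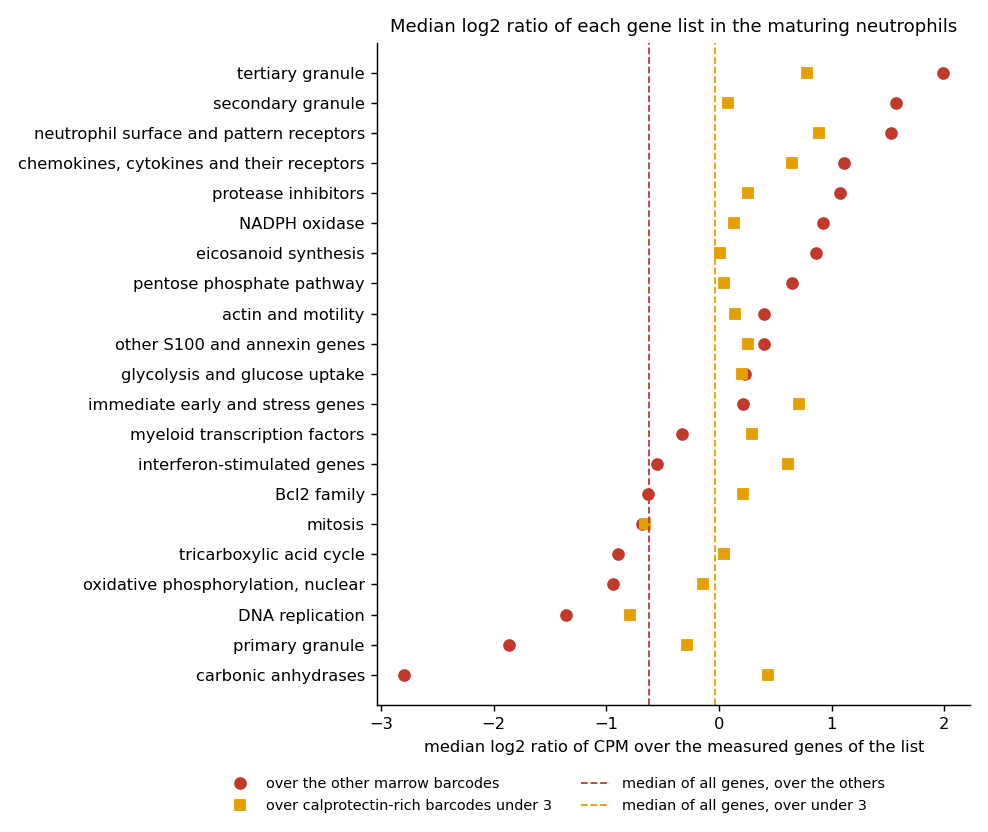
Median log2 ratio of CPM (x axis) over the measured genes of each list (y axis) for the members over the other marrow barcodes (circles) and over the below-limit barcodes (squares); dashed lines are the medians of all measured genes, -0.62 and -0.04. Tertiary granule, secondary granule and surface receptor lists lie farthest right of the first line, and replication and mitosis lie left of the second.

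Markers of other cell types were set beside these differences. Summed over the list, the monocyte markers were 1130 CPM in the members, 1013 CPM in the below-limit barcodes and 2220 CPM in the other barcodes, with Ly6c2 giving 522 of the members' UMIs. The progenitor markers were 930, 1115 and 3508 CPM, the erythroid markers 261, 190 and 1948 CPM, and the plasmacytoid dendritic markers 200, 124 and 644 CPM. In the same order, conventional dendritic markers were 149, 121 and 794 CPM, and NK and innate lymphoid markers 99.1, 142 and 274 CPM. Eosinophil markers were 66.0, 66.7 and 72.4 CPM. Stem cell markers were 31.3, 40.1 and 119 CPM, and megakaryocyte markers 15.6, 12.6 and 77.2 CPM. Flt3, Xcr1, Clec9a, Gata3, Epx, Ear1, Il5ra, Gata1, Gp9 and Adgrg1 had 0 UMIs in the members, while other genes of their lists were seen. Another lineage below means the dendritic, B, T, NK and innate lymphoid, basophil, erythroid and megakaryocyte lists only. With 2 or more UMIs of a single such list, 53 members (10.2%) and 154 below-limit barcodes (9.37%) carried such transcripts. The NK list includes Nkg7, which is also in the primary granule list. Monocyte markers reached 2 UMIs in 164 members (31.5%) and 550 below-limit barcodes (33.5%), and progenitor markers in 75 (14.4%) and 351 (21.4%). The part of such transcripts in the results was not tested beyond the counts made without the 53 members.

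The members themselves were then divided by their late-gene UMIs, into 192 with 3 to 4, 130 with 5 to 9 and 198 with 10 or more; this division was chosen after the values were seen and its bounds are ranges, not cell types. Median depth was 1050, 783.5 and 744.5 UMIs. Of 2180 genes measured in the highest and lowest range together, 379 (17.4%) reached 2-fold, 174 (7.98%) as higher at 10 or more and 205 (9.4%) as lower. By range, 26 members (13.5%) at 3 to 4, 13 (10%) at 5 to 9 and 14 (7.07%) at 10 or more had 2 or more UMIs of another lineage.

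Secondary granule genes diverged along these ranges, while the calprotectin share had medians of 34.6%, 34.2% and 33.9%. Camp was 49602 CPM in the below-limit barcodes, 47094 CPM at 3 to 4, 38940 CPM at 5 to 9 and 29999 CPM at 10 or more. Ngp was 32160, 30746, 28890 and 24952 CPM in the same order, and Chil3 was 4153, 3662, 2664 and 2053 CPM. For each of the 3 genes the intervals at 3 to 4 and at 10 or more did not overlap.

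Ltf and Lcn2 did not follow them. Ltf was 5212, 5700, 7639 and 6579 CPM, highest in the middle range (7172 to 8129), and Lcn2 was 6649, 6680, 7462 and 7197 CPM. Fcnb was 952, 826, 269 and 258 CPM, a step between 3 to 4 and 5 to 9. Summed over the secondary granule list the level was 103104 CPM in the below-limit barcodes, 99355 CPM at 3 to 4 and 76689 CPM at 10 or more. Among barcodes of 1000 or more UMIs the log2 ratio of 10 or more over 3 to 4 was -0.40 for Camp and -0.84 for Fcnb, against -0.65 (-0.70 to -0.60) and -1.68 (-2.16 to -1.22) in all members.

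Other genes ran the opposite way. S100a6 was 522, 861, 1543 and 3569 CPM, and Slpi 281, 305, 745 and 1473 CPM. Padi4 was 70.1 CPM in the below-limit barcodes, 73.3 CPM at 3 to 4, 107 CPM at 5 to 9 and 269 CPM at 10 or more, so that at 3 to 4 it was close to the below-limit level. Ly6g was 194, 262, 537 and 478 CPM, with overlapping intervals in the upper ranges (419 to 679 and 384 to 589). At 500 UMIs, S100a6 was seen in 32.3% (25.7 to 39.4), 43.8% (35.2 to 52.8) and 78.3% (71.9 to 83.8) of the members from the lowest to the highest range.

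**Figure D4:**
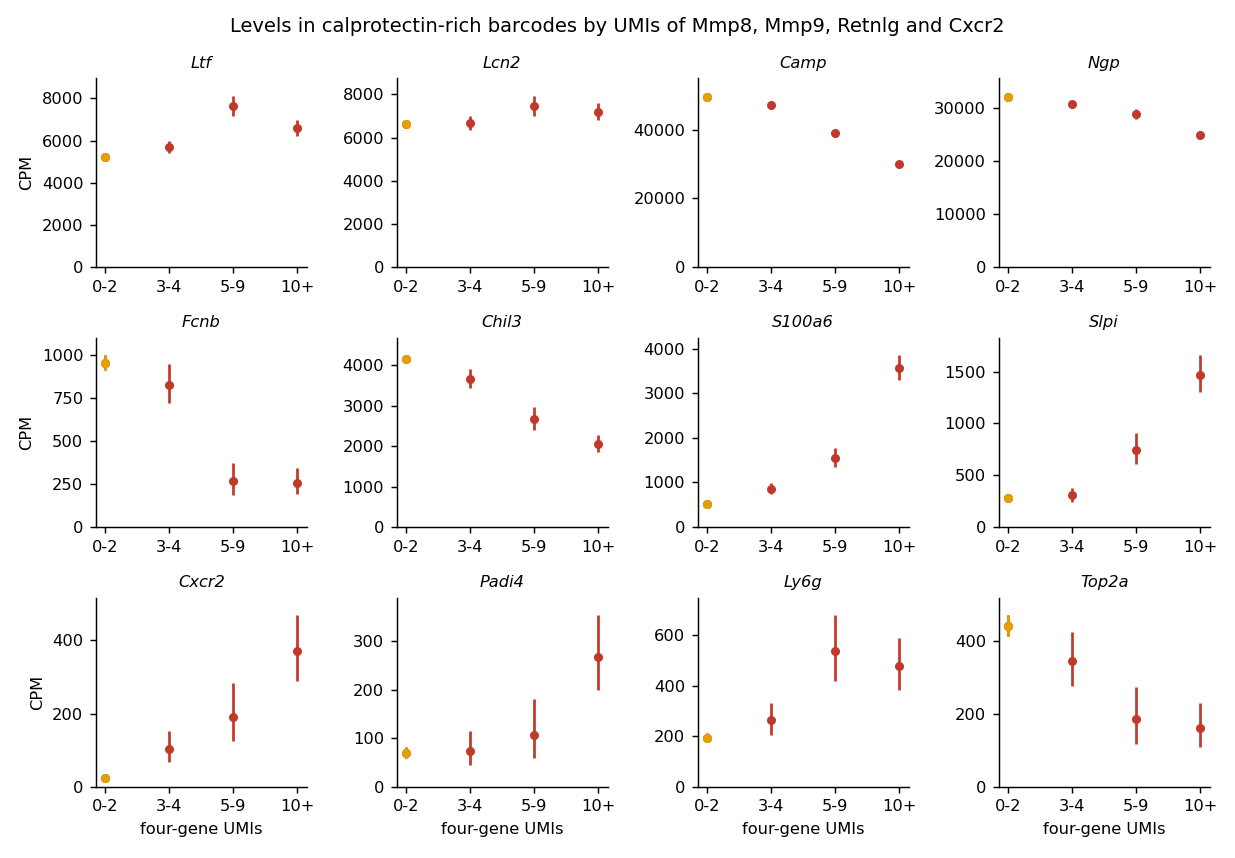
Level (y axis, CPM, from 0) of 12 genes in calprotectin-rich barcodes by UMIs of Mmp8, Mmp9, Retnlg and Cxcr2 (x axis; 0 to 2 are the 1644 below-limit barcodes, the other 3 ranges the members), with 95% exact Poisson intervals for counting error. Camp goes from 49602 to 29999 CPM and S100a6 from 522 to 3569 CPM, whereas Ltf is highest at 5 to 9; Cxcr2 is part of the rule.

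Above a mean of 50 CPM, the highest ratios of the upper over the lower range belonged to genes of low count. Il1f9, which encodes interleukin 36 gamma, had 36 UMIs at 10 or more and 1 UMI at 3 to 4 (log2 ratio 5.65, 3.08 to 10.99). It was followed by Tinagl1 (3.73), Hacd4 (3.48), Trp53inp1 (3.38), Stfa1 (3.14), Pnpla7 (3.06), Ypel3 (2.75), the tropomyosin gene Tpm4 (2.58), Il1rn (2.57) and Ceacam10 (2.57). The lowest were the histone gene Hist1h2ae (-4.43), Mat2a (-2.74), the spliceosomal Snrpd2 (-2.43), Cdk1 (-2.40), Taok3 (-2.11), Upf3b (-2.11), Yeats4 (-1.98), Ccdc34 (-1.94), Ndufv2 (-1.92) and the histone variant gene H2afx (-1.88).

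Of the surface list, 5 of 10 measured genes were counted as higher at 10 or more and 0 as lower (median 0.95 against -0.05 for all genes), among them Csf3r (1.40, 0.53 to 2.31) and C5ar1 (1.19, 0.38 to 2.02). Of 8 mitosis genes 6 were lower and 0 higher (median -1.18). Top2a, the mitotic topoisomerase, was 440 CPM in the below-limit barcodes, 343 CPM at 3 to 4, 184 CPM at 5 to 9 and 161 CPM at 10 or more. At 500 UMIs a mitosis UMI was seen in 36.5% (29.6 to 43.7), 20% (13.5 to 27.9) and 19.2% (13.9 to 25.4) of the members from the lowest range up, and the shares at 5 to 9 and at 10 or more were close to the 17.3% (8.23 to 30.3) of the plasmacytoid dendritic barcodes. Of the 24 members that Scrublet marked 2 had 10 or more late-gene UMIs, and without the marked members 173 genes were higher and 144 lower.

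**Figure D5:**
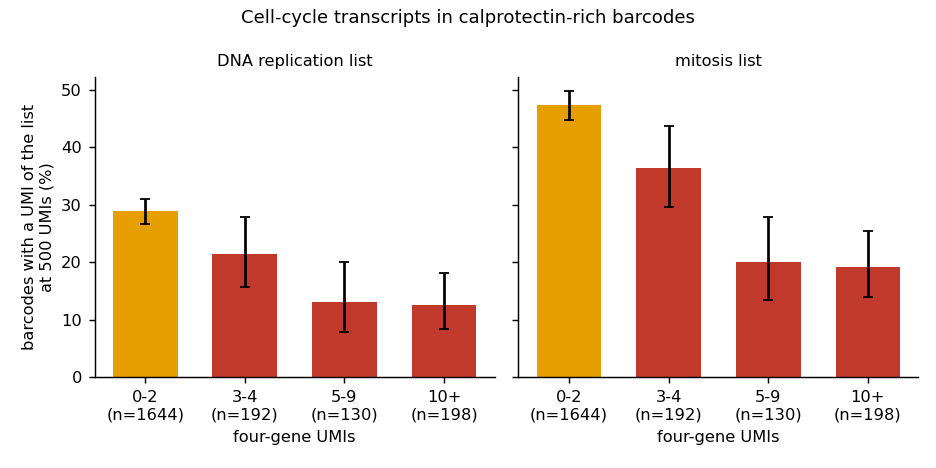
Percentage of calprotectin-rich barcodes with at least 1 UMI of the DNA replication list (left) or the mitosis list (right) after thinning to 500 UMIs (y axis, from 0), by UMIs of the late genes (x axis); error bars are 95% exact binomial intervals for counting error. Mitosis UMIs are seen in 47.3% of the below-limit barcodes and 19.2% of the members with 10 or more late-gene UMIs.

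When the members were instead ordered by the share of their UMIs in Ltf, Camp, Ngp and Lcn2 and divided into 174, 173 and 173, the medians were 5.64%, 8.45% and 10.6%. The lowest group had a median of 14 late-gene UMIs and the highest 4. Of 1954 measured genes 246 (12.6%) reached 2-fold, 216 (11.1%) as higher in the lowest group than in the highest and 30 (1.54%) as lower. The median gene stood at 0.27 on the log2 scale, so part of the distance from 0 was shared with all genes. The calprotectin share had a median of 30.5% in the lowest group and 35.3% in the highest. With the 6 rule genes taken out of the totals, 142 genes were higher and 58 lower.

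Genes known from other marrow lineages were among those that differed. Above a mean of 50 CPM, the highest ratios were those of Pld4 (4.28), Bst2 (3.31), Elane (2.83), Zeb2 (2.79), Trp53inp1 (2.77), Eid1 (2.54), Ms4a6c (2.50), Cd74 (2.44), the invariant chain of antigen presentation, Il1f9 (2.42) and Tcf4 (2.36). Elane was 695 CPM in the lowest group and 97.5 CPM in the highest, and the plasmacytoid dendritic markers summed to 458 and 51.3 CPM. Members with 2 or more UMIs of another lineage were 31 (17.8%) of the lowest group, 12 (6.94%) of the middle and 10 (5.78%) of the highest. Their part in these ratios was not tested, and barcodes that hold more than a single cell cannot be told apart from cells of mixed expression. Without the members that Scrublet marked, 162 genes were higher in the lowest group than in the highest and 40 lower.

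The genes lower in the group poorest in secondary granule transcripts were Sugt1 (-2.13), Rab32 (-1.96), the acute-phase gene Orm1 at 42.1 against 159 CPM (-1.92), Zmpste24 (-1.91), Tmem38b (-1.81), Thoc2 (-1.70), Anapc5 (-1.55), Gas7 (-1.47), Ifi27 (-1.38) and Agpat2 (-1.29). Orm1 and Zmpste24 were also lower at 10 or more late-gene UMIs than at 3 to 4 (-1.76 and -1.58). Of the late genes, all part of the rule, Retnlg was 12107 CPM in the lowest group and 3094 CPM in the highest. Mmp8 was 1537 and 878 CPM, Mmp9 1037 and 878 CPM, and Cxcr2 232 and 200 CPM.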

How the data were processed

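The 2 droplet libraries were used as deposited: the authors deposited matrices of raw counts, in which each value is the UMIs of 1 of 27998 genes in 1 barcode. Cell Ranger 2.1, Seurat 2 and mm10 are named in the submitters' processing notes; the parameters are not given in the sources used here. No cell annotation was used.

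The mitochondrial limit removed 19 marrow barcodes, and the rule was applied as stated. Members, lists and named genes were chosen with earlier results of these data known. Counts were summed per class and given as CPM with 95% exact Poisson intervals. Ratios carry exact binomial intervals, and genes with 20 or more UMIs over both sides were counted at a 2-fold limit. A side with 0 UMIs was set at a floor of 3, and at a ratio of 0 where that floor exceeded the other side. All intervals cover counting error only, and with 1 library per group no p-value was computed. Barcodes were thinned without replacement to 500 UMIs. Monocyte barcodes had 2 or more UMIs of Fn1 and F13a1, progenitor barcodes 5 or more of Elane, Mpo, Prtn3 and Ctsg, erythroid barcodes 3 or more of Car1, Car2, Klf1 and Gata1, and plasmacytoid dendritic barcodes 3 or more of Siglech, all under 15% calprotectin.

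Named genes were those of the rule, the 15 highest and 15 lowest ratios of each class comparison above a mean of 50 CPM (mitochondrial, ribosomal, globin, immunoglobulin and rule genes apart), the 10 highest and lowest within the members, and up to 4 genes per list with the largest ratios. Other genes were chosen after their values were seen. Some genes of the lists are not reported here by name. Of the gene identifiers, 27645 were found in GENCODE M21. The ratio computation was tested on simulated data. Python 3.11.15, scanpy 1.11.5, scipy 1.17.1, edgeR 4.0.16 and DESeq2 1.42.0 were used; edgeR and DESeq2 gave alternative scaling factors only. Other limits of the rule, scalings, count minimums, doublet removal and depth limits were tried.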

Additional observations from a re-analysis of the deposited data

How the results depend on the processing

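No paired analysis was possible because each group is 1 library. The number of members was 795 with a late-gene limit of 2 UMIs, 328 with a limit of 5, and 192 among barcodes of 1000 or more UMIs. Against the other barcodes, 775 genes were higher with a limit of 10 UMIs and 991 with genes of at least 1 UMI; 1305 were higher and 1659 lower with TMM factors, 1396 and 1556 with DESeq2 size factors, and 943 and 2208 with the rule genes out of the totals. Against the below-limit barcodes, 224 genes were lower with a limit of 2 UMIs, 951 with 5 and 1019 with 10 (601 higher), 790 with every barcode weighted equally, 112 higher and 137 lower with at least 50 UMIs per gene, and 1278 and 822 with at least 1 UMI. Within the members ordered by granule share, 142 genes were higher and 58 lower with the rule genes out of the totals, and by late-gene UMIs 77 and 111 among barcodes of 1000 or more UMIs. Thinning to 1000 UMIs was possible only for the 192 members of that depth, of which 17.7% held Ly6g and 100% Camp. Without thinning, Ly6g was seen in 31.2% of all 520 members, Cxcr2 in 19.0% and Fpr2 in 29.4%. Single genes that changed sign were Slc2a1 (0.60) and Tnf (-0.66) with a limit of 10 UMIs against the other barcodes, and Idh3a against the below-limit barcodes with a calprotectin limit of 10% (0.27) or a late-gene limit of 2 (0.28); each had under 20 UMIs in the members. The cause was not tested. The limit of 10 UMIs, the division by late-gene UMIs and the counts without members carrying another lineage's markers were chosen after the data were seen. Of the log2 ratios of single genes under the alternatives, 2771 stayed within the range set by the counting interval, 505 moved beyond it and 4, all of genes past 2-fold, changed sign. Low depth, a single library and free RNA limit what can be read: genes with few UMIs have intervals several-fold wide, and differences between mice were not measured.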

Other observations

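The late-gene limit alone also found barcodes that the calprotectin limit kept out. With 10 or more UMIs of Mmp8, Mmp9, Retnlg and Cxcr2 there were 198 members and 69 barcodes under 15% calprotectin, whose median calprotectin share was 8.12% and whose median depth was 1473 UMIs against 744.5 in those members. In these 69 barcodes Retnlg was 8004 CPM, Mmp8 943 CPM and Cxcr2 139 CPM, against 17437, 2456 and 371 CPM in the members with 10 or more. Ltf was 998 CPM, Camp 4509 CPM and Ly6g 124 CPM, against 6579, 29999 and 478 CPM. Elane (1083 CPM), Cd74 (626 CPM) and F13a1 (224 CPM) were above the members' values of 237, 59.1 and 37.6 CPM. Ribosomal protein transcripts took a median of 15.7% of UMIs against 4.21%, Scrublet marked 11 of the 69 (15.9%) against 2 of the 198 (1.01%), and 18, 9 and 7 of the 69 also met the monocyte, progenitor and erythroid rules. This group was singled out after its values were seen.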
